A study of Mus musculus with 12 samples.

Results

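The transcriptome of Deiters' cells was read from 6 of the 12 sets of expression values in the series. Each set comes from 1 sequencing lane, and the lanes that share an index were averaged in pairs (1 and 2, 3 and 4, 5 and 6) into 3 Deiters' cell libraries, which are the replicates. Each library held the RNA of about 1000 Deiters' cells, picked singly into a glass pipette from the dissociated organ of Corti of CBA/J mice aged 28 to 32 days, with no treatment named, and recognised by their shape. The comparison group was pillar cells, picked in the same way from mice of the same strain and age, with 6 lanes averaged into 3 libraries. Cells of several mice were pooled in a library, the methods describe both cell types as taken from the same animals, and most of the cells are thought to come from the middle and apical turns of the cochlea. Expression is given as RPKM, read counts scaled to transcript length and to the number of mapped reads, for 48440 features. The specific genes of Deiters' cells were defined as those above 1 RPKM in each of the 3 Deiters' cell libraries with a pillar cell mean below 0.1 RPKM, and 60 of the 48440 features met this rule.

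Deiters' cells are supporting cells that sit under the outer hair cells. Each forms a cup around the base of an outer hair cell and sends a thin phalangeal process up to the surface of the epithelium, where its head helps to seal the reticular lamina. A core of microtubules and actin stiffens the cell. Gap junctions of the connexins encoded by Gjb2 and Gjb6 couple it to its neighbours, and potassium released by the outer hair cells is thought to be taken up and passed on through this network.

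The steps between RPKM values fitted a scale of 18640992 to 21557403 reads in Deiters' cell libraries and 19101151 to 20189500 in pillar cell libraries. On that scale a single read on a 1 kb transcript is worth 0.0464 to 0.0536 RPKM in Deiters' cells. Values below about 0.1 RPKM therefore rest on very few reads. The scale is an estimate and not a count of mapped reads. By lane, 78.5% to 79.6% of low values came out as whole reads, and the reads placed on genes exceeded the scale in every lane. In Deiters' cell libraries 1 and 2 the paired lanes differed more than 2-fold in 560 and 556 of the genes above 1 RPKM (4.86% and 4.82%), many of them members of gene families or genes with pseudogene copies, and in library 3 in 116 (1.02%). In pillar cells the numbers were 577, 116 and 574. Named genes of this kind are marked where they appear.

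Every one of the 6 markers given for Deiters' cells was higher in them than in pillar cells. Epyc, the gene of epiphycan, a small leucine-rich proteoglycan of the extracellular matrix, led them and was the sixth most abundant gene of the cell. It lies on chromosome 10 from 97644068 to 97682454 (GRCm38) and was measured at 4202, 4156 and 4306 RPKM in Deiters' cell libraries, against 706, 708 and 707 RPKM in pillar cell libraries. The groups did not overlap, and the means differed 5.97-fold (log2 difference 2.58, standard error 0.02, limma adjusted p = 2.3e-08). Frzb, which encodes a secreted antagonist of Wnt ligands, had the largest fold of the 6, with 341, 336 and 344 RPKM in Deiters' cells, against 39.7, 36.6 and 38.6 RPKM in pillar cells (8.88-fold, adjusted p = 3.1e-08). Clic6, a member of the chloride intracellular channel family, had 99.6, 99.6 and 102 RPKM in Deiters' cells and 14.3, 13.5 and 14.3 RPKM in pillar cells. Gata2, a zinc finger transcription factor gene, had 82.3, 81.7 and 82.0 RPKM in Deiters' cells and 17.9, 17.7 and 17.9 RPKM in pillar cells. Krt19, the gene of an acidic keratin of simple epithelia, had 208, 208 and 206 RPKM in Deiters' cells and 60.3, 58.1 and 61.0 RPKM in pillar cells. Each of these genes was detected in every pillar cell library, so the markers set the cell types apart by level and not by presence. Fst, the gene of follistatin, which binds activins, was the lowest, at 28.7, 27.7 and 29.9 RPKM in Deiters' cells and 6.08, 7.26 and 5.93 RPKM in pillar cells. Frzb, Gata2, Krt19 and Fst, 4 of the 6, also belong to the list for the cells lateral to the Deiters' cells (Hensen cells, Claudius cells, outer sulcus), and Epyc to that of the inner sulcus. The authors took Epyc, Frzb and Clic6 to quantitative PCR as genes that differ between these cell types, and they name Fst among differentially expressed genes. That these genes differ was therefore known from the same data, and their calls are no independent test of the markers.

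In all, 2404 of 17188 genes tested were called higher in Deiters' cells (14.0%) and 2534 lower (14.7%). A call needed an adjusted p of at most 0.01 from limma and a difference of at least 2-fold between Deiters' and pillar cells on the log2(RPKM + 0.1) scale, and each log2 difference below is Deiters' minus pillar. These shares are the background for the counts of the gene lists. For genes of low expression the added 0.1 shrinks the log2 difference below that of the means themselves. With 3 libraries against 3, an exact permutation test cannot give a two-sided p below 0.1.

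Markers of other cells of the cochlea showed which RNA was present beside that of the given markers. Of 17 genes of supporting cells in general, 2 were higher (11.8%, Hey1 and Hey2) and 6 lower (35.3%) in Deiters' cells. Of all genes tested, 14.0% were higher and 14.7% lower. The summed level of the list was nevertheless higher in Deiters' cells, at 2790 to 2874 RPKM, against 2032 to 2056 RPKM in pillar cell libraries. Gjb6 and Gjb2 were its most abundant members. Sox2, a transcription factor gene of supporting cells, had 12.1, 13 and 13 RPKM in Deiters' cells and 31.5, 31.4 and 31.7 RPKM in pillar cells, and was lower in Deiters' cells (adjusted p = 7.4e-07 from limma). Prox1, a homeobox gene used to mark developing Deiters' and pillar cells, was near the limit of measurement, at 0.0998, 0.167 and 0.192 RPKM in Deiters' cells and 0.378, 0.418 and 0.342 RPKM in pillar cells. Of 14 genes tested from the Hensen, Claudius and outer sulcus list, 6 were higher (42.9%, 4 of them given markers) and 1 lower in Deiters' cells, and Crabp1 of this list was at 0 in each Deiters' cell library. The list of pillar cell markers did not separate the cell types in one direction, with 4 of 10 tested genes higher and 4 lower in Deiters' cells. Those lower were S100b, S100a6, Bmp2 and Emcn. They averaged 177, 2.70, 0.0333 and 4.18 RPKM in Deiters' cells and 458, 42.2, 3.93 and 9.56 RPKM in pillar cells. Cryab and Tubb3 were among those higher. Cryab, a small heat shock protein gene on that list, had 732, 768 and 737 RPKM in Deiters' cells and 344, 335 and 352 RPKM in pillar cells. Sox2 and Prox1 were picked from the lists after their values were seen.

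Hair cell genes were measurable in Deiters' cells but lower than in pillar cells. Of 20 general hair cell genes, 18 were lower in Deiters' cells and 0 were higher at the threshold, and their summed level was 354 to 359 RPKM in Deiters' cell libraries and 1378 to 1451 RPKM in pillar cell libraries. Calb2, which encodes the calcium buffer calretinin, had 186, 180 and 181 RPKM in Deiters' cells and 657, 623 and 632 RPKM in pillar cells (log2 difference -1.80, adjusted p = 8.7e-08 from limma). Ocm, the gene of oncomodulin, a calcium-binding protein abundant in outer hair cells, had 85.9, 93.5 and 89.6 RPKM in Deiters' cells and 302, 299 and 325 RPKM in pillar cells. Slc26a5, the gene of the outer hair cell motor protein prestin and chosen here after its values were seen, had 1.37, 1.23 and 1.69 RPKM in Deiters' cells and 24.6, 26.4 and 28.1 RPKM in pillar cells. One gene on the inner hair cell list went the other way: Rprm, which encodes reprimo, a protein linked to cell cycle arrest, had 55.9, 56.1 and 57.4 RPKM in Deiters' cells and 8.86, 7.99 and 8.82 RPKM in pillar cells. In pooled cells, fewer cells of a type and less RNA per cell cannot be told apart.

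Genes of fibrocytes and of blood were also present. Lum, the gene of the matrix proteoglycan lumican, had 845, 835 and 874 RPKM in Deiters' cells and 268, 272 and 269 RPKM in pillar cells, and was called higher in Deiters' cells (adjusted p = 7.2e-08 from limma). Of 14 genes on the list of fibrocytes, tympanic border cells and bone, 2 were higher and 7 lower in Deiters' cells, and the list summed to 2465 to 2486 RPKM in Deiters' cell libraries and 3380 to 3406 RPKM in pillar cell libraries. The red cell genes, whose haemoglobin members share reads and differed between lanes, summed to 2975 to 3459 RPKM in Deiters' cells and 4805 to 4883 RPKM in pillar cells, with 0 of 8 tested genes higher and 1 lower. Against this, eosinophil genes were far higher in Deiters' cells. Their list summed to 97.2, 99.5 and 96.4 RPKM in Deiters' cell libraries and 5.84, 7.15 and 6.22 RPKM in pillar cell libraries, with 7 of 9 tested genes higher and 0 lower, while Siglecf and Il5ra, surface receptor genes of mature eosinophils, were at 0 in each Deiters' cell library. Neutrophil genes split. Elane and Mpo, which encode elastase and myeloperoxidase of the early granules, had 58.2, 59.6 and 57.4 RPKM and 39.3, 38.4 and 40.4 RPKM in Deiters' cells, against 11, 9.84 and 9.58 RPKM and 7.12, 6.38 and 7.39 RPKM in pillar cells. The other way round, 10 of 15 neutrophil genes were lower in Deiters' cells, among them S100a9, which had 68.6, 79.6 and 73.2 RPKM in Deiters' cells and 165, 173 and 171 RPKM in pillar cells. Platelet genes summed to 33.3 to 37.4 RPKM in Deiters' cells and 9.96 to 13.3 RPKM in pillar cells, with 6 of 8 higher (3 with a pseudocount of 1 RPKM). Elane, Mpo, Siglecf and Il5ra were named after their values were seen.

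**Figure D1:**
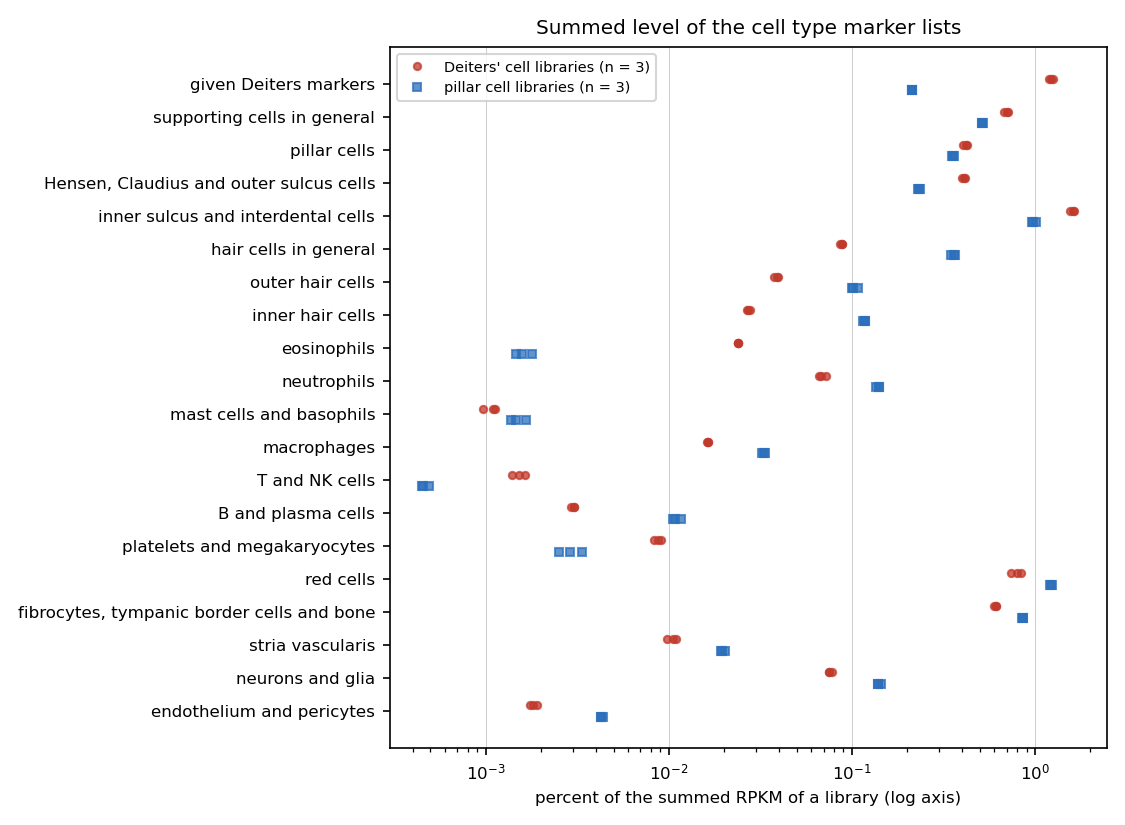
Summed RPKM of each list of cell type markers as a percent of the summed RPKM of the library (log axis), with 1 circle per Deiters' cell library and 1 square per pillar cell library. The given Deiters' markers took 1.22% ± 0.0369 of the RPKM in Deiters' cells and 0.213% ± 0.00131 in pillar cells (SD, n = 3 each), and the eosinophil list stands out among the blood lists, at 0.0239% in Deiters' cells and 0.00162% in pillar cells.

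Deiters' cells expressed 16005 genes with a mean above 0.1 RPKM, and their RNA was concentrated in few of them. A single gene, S100a1, took 7.06% ± 0.274 of the summed RPKM in Deiters' cells and 3.06% ± 0.0247 in pillar cells (SD, n = 3 libraries each). The top 10 genes took 21.1% ± 0.333 in Deiters' cells and 17.1% ± 0.164 in pillar cells. Both differences were as large as 3 libraries against 3 can show in a two-sided exact permutation test (p = 0.1). With the 150 most abundant genes the shares came together, at 43.9% ± 0.466 in Deiters' cells and 43.5% ± 0.249 in pillar cells (two-sided exact permutation p = 0.3). The abundance classes show the same shape. In Deiters' cells 33 genes lay above 1000 RPKM, 599 between 100 and 1000 RPKM, 4066 between 10 and 100 RPKM and 6477 between 1 and 10 RPKM. Of the 33 genes at the top, 9 were called higher in Deiters' cells (27.3%) and 5 lower (15.2%). Of the 150, 29 were called higher, 13 lower and 108 were not called.

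S100a1 encodes a calcium-binding protein of the S100 family, which changes shape on binding calcium and so regulates its partner proteins. It was the most abundant gene, at 28585, 30415 and 27386 RPKM in Deiters' cells, against 12245, 12072 and 12078 RPKM in pillar cells. It was 2.37-fold higher in Deiters' cells (log2 difference 1.25, adjusted p = 2.0e-06 from limma), although it was also the first gene of pillar cells, and quantile normalization, which gives equal values to equal ranks, leaves no difference (0.00). Its relative S100a13 had 1660, 1844 and 1564 RPKM in Deiters' cells and 487, 512 and 504 RPKM in pillar cells. S100 genes did not share a direction: S100a6 had 2.89, 2.89 and 2.31 RPKM in Deiters' cells and 40.9, 43.8 and 42.0 RPKM in pillar cells (log2 difference -3.93, adjusted p = 3.3e-07 from limma). Of all 24 calcium-binding protein genes listed, 4 were higher (16.7%) and 11 lower (45.8%) in Deiters' cells. Of all genes tested, 14.0% were higher and 14.7% lower, so the share higher lay near the background and the share lower above it. Calm2, 1 of 3 genes that encode the same calmodulin protein, had 1159, 1229 and 1230 RPKM in Deiters' cells and 2707, 2703 and 2654 RPKM in pillar cells.

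**Figure D2:**
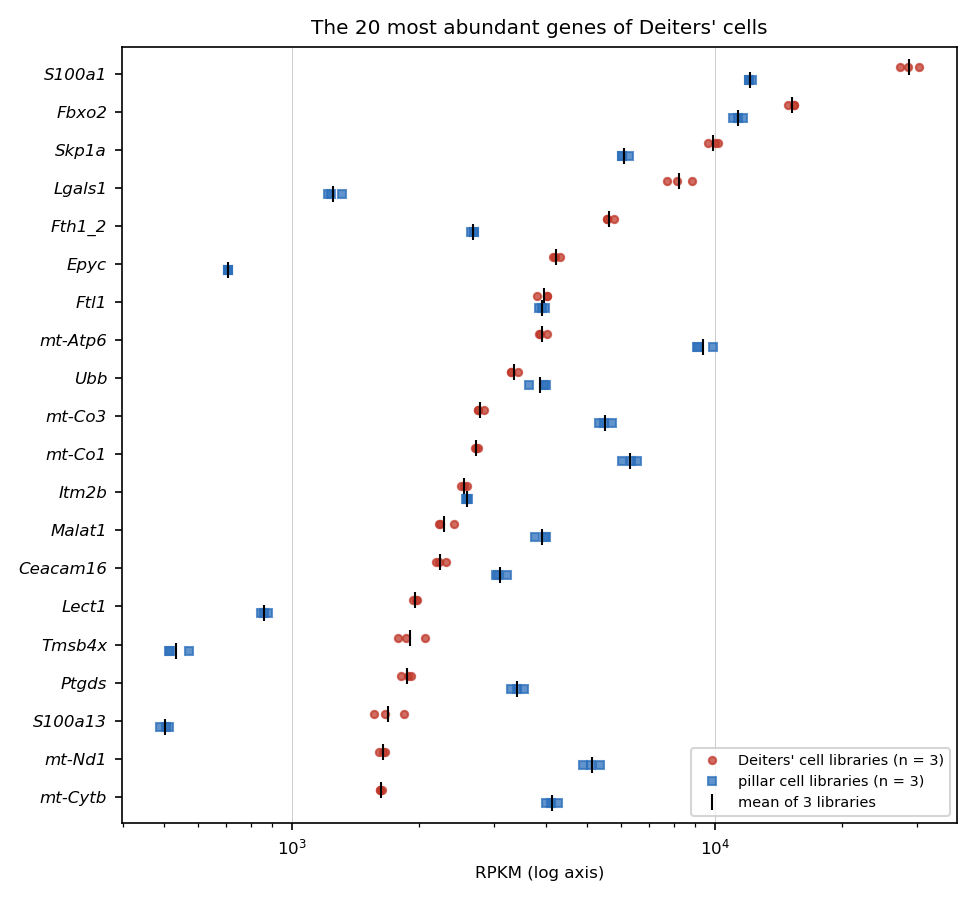
RPKM (log axis) of the 20 most abundant genes of Deiters' cells, with 1 circle per Deiters' cell library, 1 square per pillar cell library and a tick at each mean. Lgals1, Epyc, Tmsb4x and S100a13 lie well apart with Deiters' cells on the right, and the genes of the mitochondrial genome lie with Deiters' cells on the left.

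The next most abundant genes encode parts of a ubiquitin ligase. Fbxo2, the gene of an F-box protein that recognises glycoproteins with high-mannose sugars, had 15396, 15438 and 14867 RPKM in Deiters' cells and 11662, 11048 and 11381 RPKM in pillar cells. Skp1a, which encodes the adaptor that joins F-box proteins to the cullin scaffold, had 9615, 10004 and 10157 RPKM in Deiters' cells and 6038, 6043 and 6259 RPKM in pillar cells. The libraries of the cell types did not overlap for either gene, but the differences of 1.34-fold and 1.62-fold were under the 2-fold limit of a call. The rest of this machinery was far less abundant, with the scaffold gene Cul1 at 41.7 RPKM and the ring finger gene Rbx1 at 219 RPKM on average in Deiters' cells, against 34.1 and 177 RPKM in pillar cells. Of 23 listed ubiquitin ligase genes 0 were called higher in Deiters' cells and 1 lower (4.35%), against 14.0% and 14.7% of all genes. The gene called lower was Fbxo32, an F-box gene known from muscle wasting. It had 8.35, 7.80 and 8.45 RPKM in Deiters' cells and 22.3, 22.2 and 22.6 RPKM in pillar cells. Together the list took 7.43% ± 0.0705 of the RPKM in Deiters' cells and 5.83% ± 0.147 in pillar cells (SD, n = 3 libraries each).

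Lgals1 had the largest difference among the 20 most abundant genes. It encodes galectin 1, a lectin that binds galactose-bearing sugars, and was measured at 8122, 8845 and 7705 RPKM in Deiters' cells and 1215, 1236 and 1311 RPKM in pillar cells (6.56-fold, log2 difference 2.71, adjusted p = 2.5e-07 from limma). Tmsb4x, the gene of thymosin beta 4, which holds actin in monomer form, had 1783, 2069 and 1865 RPKM in Deiters' cells and 515, 513 and 570 RPKM in pillar cells. Lect1, which encodes the cartilage protein chondromodulin, had 1971, 1938 and 1973 RPKM in Deiters' cells and 879, 860 and 847 RPKM in pillar cells. All these were higher in Deiters' cells. Among genes above 100 RPKM, 71 of 632 were called higher (11.2%, near the 14.0% of all genes), and Frzb, Ctgf, Clic6, Lgals1, Qpct and Epyc had the largest folds. Ctgf, the gene of a matricellular growth factor, had 287, 283 and 286 RPKM in Deiters' cells and 41.0, 40.3 and 37.9 RPKM in pillar cells. Qpct, the gene of an enzyme that turns N-terminal glutamine into pyroglutamate, had 581, 595 and 611 RPKM in Deiters' cells and 95.3, 97.2 and 104 RPKM in pillar cells. Manba, a lysosomal mannosidase gene, was 5.85-fold higher in Deiters' cells, the protease gene Prss36 3.96-fold, the gene of the secreted inhibitor-like protein Wfdc2 4.29-fold and the gene of the hyaluronan-binding protein Itih5 4.57-fold. Nme2, a nucleoside diphosphate kinase gene, belongs to this set by its averaged values, but its lanes lay at an upper and a lower level. These were 272 to 344 and 89.1 to 90.7 RPKM in Deiters' cells, and 74.9 to 103 and 28.6 to 32.0 RPKM in pillar cells. Both lanes were at the upper level in Deiters' cell library 3 and at the lower level in pillar cell library 2. The size of its fold therefore depends on an unequal mix of lanes.

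The genes of ferritin, which stores iron, ranked 5 and 7 by abundance in Deiters' cells. Fth1_2, the feature whose identifier is that of the ferritin heavy chain gene Fth1, had 5559, 5775 and 5560 RPKM in Deiters' cells and 2704, 2651 and 2695 RPKM in pillar cells (log2 difference 1.07, adjusted p = 5.4e-07 from limma). Ftl1, the gene of the light chain, which assembles with the heavy chain into one shell, had 4021, 4021 and 3809 RPKM in Deiters' cells and 3967, 3851 and 3910 RPKM in pillar cells, and did not pass the test (adjusted p = 0.7). The 2 ferritin chains thus differed between the cell types in unequal measure. Of 36 antioxidant and metal-binding genes, 2 were higher in Deiters' cells (5.56%) and 4 lower. Mgst1, a microsomal glutathione transferase gene, was the other one higher, at 188, 196 and 187 RPKM in Deiters' cells and 50.6, 52.5 and 50.4 RPKM in pillar cells. Gpx2, which encodes an epithelial glutathione peroxidase, had 596, 602 and 594 RPKM in Deiters' cells and 3417, 3325 and 3378 RPKM in pillar cells, 5.65-fold lower in Deiters' cells (adjusted p = 2.3e-08). Gpx4, the peroxidase gene that protects membrane lipids, had 627, 637 and 605 RPKM in Deiters' cells and 470, 452 and 447 RPKM in pillar cells.

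The mitochondrial genome contributed less RNA in Deiters' cells. Its 13 respiratory chain genes took 4%, 4.09% and 4.05% of the RPKM in Deiters' cell libraries, against 9.69%, 10.2% and 9.61% in pillar cell libraries, and 11 of the 13 were called lower in Deiters' cells (84.6%) and 0 higher. The median log2 difference was -1.26, against 0.00 for all genes tested. mt-Nd1, a subunit gene of respiratory complex I, had 1645, 1663 and 1610 RPKM in Deiters' cells and 5106, 5352 and 4882 RPKM in pillar cells. mt-Atp6, a subunit gene of the ATP synthase, had 3844, 4017 and 3860 RPKM in Deiters' cells and 9117, 9892 and 9065 RPKM in pillar cells. Glycolysis genes were mostly not called: of 27 tested genes of sugar transport, glycolysis and glycogen, 3 were higher and 1 lower in Deiters' cells, and the list took 0.564% of the RPKM in each cell type. The 3 were Eno2, an enolase gene (4.58, 4.07 and 4.38 RPKM in Deiters' cells and 1.10, 0.846 and 0.909 RPKM in pillar cells), the glucose transporter gene Slc2a3 (0.403, 0.551 and 0.370 RPKM in Deiters' cells and 0.0136, 0.0217 and 0.0646 RPKM in pillar cells) and Pygl, a glycogen phosphorylase gene (12.9, 12.7 and 12.5 RPKM in Deiters' cells and 4.04, 3.43 and 4.25 RPKM in pillar cells).

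The abundant connexin genes differed by less than 2-fold, and potassium genes differed in both directions. Gjb6 and Gjb2 were the 2 gap junction genes above 1 RPKM in Deiters' cells of the 16 listed, and 6 of the 16 were at 0 in every library. Gjb6 had 1395, 1362 and 1402 RPKM in Deiters' cells and 721, 719 and 697 RPKM in pillar cells, and Gjb2 had 1164, 1123 and 1167 RPKM in Deiters' cells and 766, 780 and 776 RPKM in pillar cells. Neither reached the 2-fold limit. Of the 7 gap junction genes tested, 0 were higher and 1 lower in Deiters' cells, and 11 alternatives changed this last count (0 to 2). It was Gja1, the gene of connexin 43, with 0.0595, 0.234 and 0.225 RPKM in Deiters' cells and 0.622, 0.573 and 0.470 RPKM in pillar cells (adjusted p = 0.0075 from limma). Kcnj16, an inward rectifier potassium channel gene, was the most abundant on the potassium list, at 396, 390 and 399 RPKM in Deiters' cells and 273, 285 and 271 RPKM in pillar cells. Slc12a7, which encodes the potassium chloride cotransporter KCC4, had 146, 139 and 147 RPKM in Deiters' cells and 337, 346 and 341 RPKM in pillar cells, and its relative Slc12a4, the gene of KCC1, had 6.90, 6.35 and 7.38 RPKM in Deiters' cells and 1.75, 1.86 and 1.64 RPKM in pillar cells. The first was lower and the second higher in Deiters' cells. Of the 22 potassium genes tested, 4 were higher (18.2%) and 9 lower (40.9%) in Deiters' cells, where 14.0% and 14.7% of all genes were. Among those lower were Kcnk2, a gene of the two-pore-domain channel family (0.516, 0.357 and 0.521 RPKM in Deiters' cells and 9.31, 9.15 and 9.82 RPKM in pillar cells), and Kcnma1, the gene of the large-conductance calcium-activated channel known from hair cells (with 0.476, 0.430 and 0.379 RPKM in Deiters' cells and 6.51, 6.41 and 6.56 RPKM in pillar cells).

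Among water channel genes, Aqp4 and Aqp11 were higher in Deiters' cells and Aqp3 was lower. Aqp4, the gene of the main water channel of glia and of several supporting cells, had 75.1, 73.8 and 75.4 RPKM in Deiters' cells and 16, 15.5 and 16.2 RPKM in pillar cells (log2 difference 2.23, adjusted p = 3.9e-08 from limma). Aqp11, an aquaporin gene of internal membranes, had 79.1, 77.5 and 80.2 RPKM in Deiters' cells and 32.7, 33.4 and 30.7 RPKM in pillar cells. Aqp3 gave 0 in all Deiters' cell libraries and 0.704, 0.544 and 0.772 RPKM in pillar cells. Of the 25 genes of chloride channels, aquaporins and fluid handling, 5 were higher and 3 lower in Deiters' cells (3 and 1 with a pseudocount of 1 RPKM). Of all genes tested, 14.0% were higher and 14.7% lower, so the shares of this list lay near the background. The median log2 difference of the list was -0.38. Slc4a11, a membrane transporter gene of the bicarbonate transporter family, had 10.8, 10.5 and 11 RPKM in Deiters' cells and 33.5, 34.6 and 31.7 RPKM in pillar cells, and was lower in Deiters' cells.

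**Figure D3:**
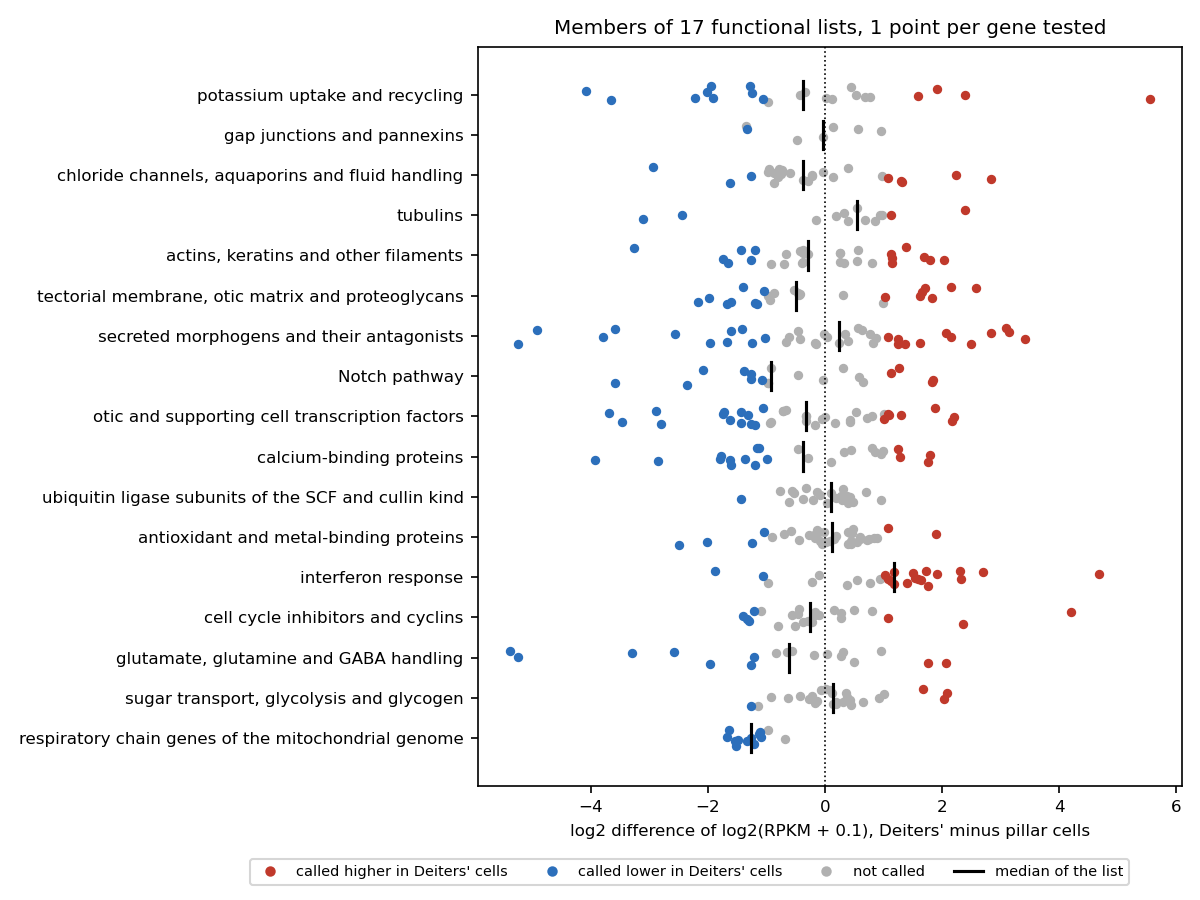
Log2 difference of each tested member of the 17 functional lists (Deiters' minus pillar, on log2(RPKM + 0.1)), with the calls in colour and the median of each list as a bar. The interferon list has its median at 1.17, that of the mitochondrial genome at -1.26, and most of the other lists spread on both sides of 0.

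The cytoskeleton genes gave the microtubule and keratin side of the cell. Tuba1b and Tuba1a, near-identical alpha tubulin genes, had 757, 745 and 806 RPKM and 672, 638 and 549 RPKM in Deiters' cells, against 442, 408 and 427 RPKM and 494, 527 and 462 RPKM in pillar cells. Neither was called. Tubb3, a beta tubulin gene best known from neurons, was higher in Deiters' cells, with a mean of 6.30 RPKM, against 1.12 RPKM in pillar cells. Tuba8, an alpha tubulin gene, had 3.81, 3.49 and 3.34 RPKM in Deiters' cells and 32.5, 29.6 and 31.8 RPKM in pillar cells. Of 13 tubulin genes 2 were higher and 2 lower in Deiters' cells (15.4% each, near the 14.0% and 14.7% of all genes). The other gene called higher, Tuba1c, had lanes at an upper and a lower level. These were 124 to 129 and 63.9 to 70.5 RPKM in Deiters' cells, and 73.8 to 74.0 and 36.3 to 39.5 RPKM in pillar cells. Both lanes were at the upper level in Deiters' cell library 3 and at the lower level in pillar cell library 2. The size of its difference therefore depends on an unequal mix of lanes. Krt8 and Krt18, the keratin pair of simple epithelia, were both called higher in Deiters' cells beside Krt19, with means of 24.5 and 46.1 RPKM in Deiters' cells and 9.40 and 20.7 RPKM in pillar cells. Myo6, the gene of a myosin that moves towards the minus end of actin filaments, had 108, 107 and 112 RPKM in Deiters' cells and 33.3, 34.2 and 33.9 RPKM in pillar cells. Gsn, which encodes the actin-severing protein gelsolin, was 9.67-fold lower in Deiters' cells, with 105, 104 and 105 RPKM, against 1018, 999 and 1018 RPKM in pillar cells (adjusted p = 1.4e-08 from limma). Of 29 tested genes of actins, keratins and other filaments, 7 were higher (24.1%) and 6 lower (20.7%) in Deiters' cells, and with a pseudocount of 1 RPKM 2 were lower.

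Secreted matrix genes were high in Deiters' cells and moved in both directions. Ceacam16, the gene of a tectorial membrane protein, had 2310, 2189 and 2227 RPKM in Deiters' cells and 3228, 3045 and 3066 RPKM in pillar cells, a difference below 2-fold. The collagen IX genes were higher in Deiters' cells as a group of 3: Col9a3 had 38.1, 37.1 and 36.2 RPKM in Deiters' cells and 11, 10.7 and 9.84 RPKM in pillar cells, and Col9a2 and Col9a1 averaged 37.2 and 7.03 RPKM in Deiters' cells and 11.4 and 2.21 RPKM in pillar cells. Matn4, the gene of the matrix protein matrilin 4, had 3.22, 2.49 and 2.91 RPKM in Deiters' cells and 0.631, 0.547 and 0.524 RPKM in pillar cells. Otog, which encodes otogelin, a glycoprotein of the acellular membranes of the inner ear, was lower in Deiters' cells, at 11.1, 10.1 and 10.3 RPKM, against 47.9, 48.4 and 46.2 RPKM in pillar cells. Coch, the gene of cochlin, a matrix protein of the cochlear fibrocytes, had 231, 228 and 232 RPKM in Deiters' cells and 703, 707 and 698 RPKM in pillar cells. Tecta, the gene of the major tectorial membrane protein alpha tectorin, was at 0 in each library of both cell types. Of 24 matrix genes tested, 7 were higher (29.2%) and 8 lower (33.3%) in Deiters' cells.

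Several secreted signals were high in Deiters' cells. Bmp4, the gene of a bone morphogenetic protein, had 155, 145 and 148 RPKM in Deiters' cells and 27.3, 25.4 and 26.5 RPKM in pillar cells (5.66-fold, adjusted p = 7.4e-08 from limma), while its relative Bmp2 had 0.0259, 0.0438 and 0.0302 RPKM in Deiters' cells and 4.04, 4 and 3.75 RPKM in pillar cells. The 2 ligand genes were thus called in opposite directions. Sfrp5, which like Frzb encodes a secreted Frizzled-related protein that antagonises Wnt signals, had 2.39, 2.19 and 2.32 RPKM in Deiters' cells and 0.130, 0.165 and 0.0821 RPKM in pillar cells. Inhbb, the gene of the beta B subunit of activin, which follistatin binds, had 0.708, 0.975 and 0.706 RPKM in Deiters' cells and 0, 0 and 0.0124 RPKM in pillar cells. Igfbp3, whose product carries insulin-like growth factors, was 73.4-fold lower in Deiters' cells, at 0.0889, 0.133 and 0.0857 RPKM, against 7.07, 7.71 and 7.78 RPKM in pillar cells. Fgf10, a fibroblast growth factor gene, had 1.18, 1.69 and 1.33 RPKM in Deiters' cells and 20.2, 20.7 and 20.5 RPKM in pillar cells. Of 39 tested morphogens and antagonists, 12 were higher (30.8%) and 11 lower (28.2%) in Deiters' cells.

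The Notch pathway, by which cells in contact set each other's fate, had members called in both directions. Heyl, a transcriptional repressor gene of the Hes and Hey family, was the most abundant, at 122, 113 and 119 RPKM in Deiters' cells and 78.4, 73.2 and 75.4 RPKM in pillar cells, and was not called. Hey1 was called higher, with 40.8, 41.3 and 43.6 RPKM in Deiters' cells and 11.8, 12.3 and 11.2 RPKM in pillar cells, as was Hey2, while Hes5, another gene of this family, was at 0 in each Deiters' cell library. The ligand gene Dll1 had 0.0218, 0 and 0.0128 RPKM in Deiters' cells and 1.35, 1.47 and 0.952 RPKM in pillar cells, and Lfng, the gene of a glycosyltransferase that modifies Notch receptors, had 1.48, 1.93 and 1.61 RPKM in Deiters' cells and 8.34, 9.18 and 9.33 RPKM in pillar cells. Both were lower in Deiters' cells. Of 19 tested pathway genes, 4 were higher (21.1%) and 7 lower (36.8%) in Deiters' cells, where 14.0% and 14.7% of all genes were. With a pseudocount of 1 RPKM 2 were higher and 4 lower, and the median log2 difference was -0.92 at the main setting.

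Among the listed transcription factor genes, Gata3 was the most abundant in Deiters' cells. Gata3, needed for the development of the auditory system, had 335, 328 and 338 RPKM in Deiters' cells and 169, 166 and 165 RPKM in pillar cells, just under the 2-fold limit on the log2 scale. Id2, whose product blocks basic helix-loop-helix factors, was next, at 308, 305 and 304 RPKM in Deiters' cells and 306, 321 and 328 RPKM in pillar cells. Msx1, a homeobox gene, had 5.01, 4.24 and 4.99 RPKM in Deiters' cells and 0.948, 0.947 and 1.02 RPKM in pillar cells, and was higher in Deiters' cells (adjusted p = 3.3e-06 from limma). Etv1, an ETS factor gene, had 0.535, 0.485 and 0.455 RPKM in Deiters' cells and 6.27, 6.45 and 6.64 RPKM in pillar cells. Pou4f3, the gene of a factor that hair cells need, had 2.28, 1.74 and 1.55 RPKM in Deiters' cells and 13.4, 14.4 and 14.6 RPKM in pillar cells. Of 38 tested factor genes, 7 were higher (18.4%) and 13 lower (34.2%) in Deiters' cells, and with a pseudocount of 1 RPKM 4 were higher and 7 lower.

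Genes for handling the transmitters glutamate and GABA were called lower more often than higher in Deiters' cells. Slc1a3, which encodes the glutamate transporter GLAST, had 5.82, 5.28 and 5.49 RPKM in Deiters' cells and 212, 214 and 213 RPKM in pillar cells, 38.5-fold lower in Deiters' cells (adjusted p = 1.5e-08 from limma). Gad1, which encodes a GABA-making decarboxylase, had 0.122, 0.211 and 0.218 RPKM in Deiters' cells and 11.6, 11.4 and 11.7 RPKM in pillar cells. Glul, the gene of glutamine synthetase, was alike in level, at 48.5, 48.4 and 46.7 RPKM in Deiters' cells and 52.7, 55.2 and 55.5 RPKM in pillar cells. Got2, Slc38a2 and Got1, the next in abundance, averaged 46.0, 24.8 and 21.9 RPKM in Deiters' cells. Their means in pillar cells were 23.6, 20.5 and 15.6 RPKM, and none of them was called. Of 18 tested genes, 2 were higher (11.1%) and 7 lower (38.9%) in Deiters' cells, and both of those higher, Slc6a11 and Slc1a1, were scarce, averaging 0.323 and 0.236 RPKM in Deiters' cells, were at 0 in pillar cells and were not called with a pseudocount of 1 RPKM. Of the genes lower in Deiters' cells and above 100 RPKM in pillar cells, the largest folds were those of Slc1a3, the potassium channel gene Kcna10 (4.81, 4.12 and 4.31 RPKM in Deiters' cells and 132, 128 and 132 RPKM in pillar cells), Kncn, Cd164l2, Lhfpl5 and Atp2a3.

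Cell cycle genes were called in both directions, at shares near those of all genes. Ccnd3, the gene of cyclin D3, had 57.2, 54.7 and 55.6 RPKM in Deiters' cells and 32.1, 31.5 and 32.5 RPKM in pillar cells, and did not reach the 2-fold limit. Cdkn2d, which encodes the cyclin-dependent kinase inhibitor p19, had 50.1, 48.2 and 45.0 RPKM in Deiters' cells and 118, 112 and 124 RPKM in pillar cells, and was lower in Deiters' cells. Ccnd1, the gene of cyclin D1, had 2.53, 2.27 and 2.03 RPKM in Deiters' cells and 0.294, 0.323 and 0.488 RPKM in pillar cells, and was higher. The proliferation genes Mki67 and Top2a averaged 0.356 and 0.312 RPKM in Deiters' cells and 0.391 and 0.434 RPKM in pillar cells, and neither was called. Of 24 tested cell cycle genes, 3 were higher (Mcm2, Ccnd1 and Ccna2) and 4 lower in Deiters' cells (2 lower with a pseudocount of 1 RPKM). These are 12.5% and 16.7%, against 14.0% and 14.7% of all genes.

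Interferon response genes had the largest share of higher calls among the functional lists. Interferons bind receptors that activate transcription factors in the cell, and these switch on antiviral genes through a DNA element with repeated GAAA letters in their promoters. Of 26 genes tested, 17 were higher (65.4%, against 14.0% of all genes) and 2 lower in Deiters' cells, with a median log2 difference of 1.17. With 1 RPKM added before taking logs, 10 were higher. Ifit1 and Ifit3, whose products bind viral RNA or the proteins that do, had 44.4, 47.5 and 48.2 RPKM and 60.4, 60.2 and 72.1 RPKM in Deiters' cells, against 12.7, 15 and 14.3 RPKM and 14.1, 11.1 and 13.7 RPKM in pillar cells. Ifit3 shares reads with its near copy Ifit3b, and the lanes of Deiters' cell library 1 read 71.0 and 49.8 RPKM for the one and 15.9 and 31.9 RPKM for the other. Their sum was steady, at 84.3, 84.3 and 88.1 RPKM in Deiters' cells and 18.5, 17.7 and 19.3 RPKM in pillar cells (4.63-fold). Isg15, which encodes a ubiquitin-like modifier, had 7.06, 6.45 and 5.53 RPKM in Deiters' cells and 0.917, 1.73 and 1.03 RPKM in pillar cells. Ifi27, the most abundant of the list, had 228, 234 and 227 RPKM in Deiters' cells and 102, 104 and 102 RPKM in pillar cells. Mx2, an antiviral GTPase gene, had 0.706, 0.962 and 0.772 RPKM in Deiters' cells and 0.0137, 0.144 and 0 RPKM in pillar cells. Stat2 and Irf9, which encode transcription factors of the pathway, are the next members: Stat2 averaged 8.51 RPKM in Deiters' cells and 3.88 RPKM in pillar cells and was called, and Irf9 averaged 20.9 RPKM in Deiters' cells and 12.2 RPKM in pillar cells and was not called. Gbp3, a guanylate-binding protein gene, was lower in Deiters' cells, at 1.09, 1.30 and 1.41 RPKM, against 4.54, 5.05 and 5.18 RPKM in pillar cells, and Ifitm3, a gene of a membrane protein that blocks virus entry, did not pass the 2-fold limit, at 95.8, 97.0 and 91.2 RPKM in Deiters' cells and 109, 114 and 111 RPKM in pillar cells. The eosinophil, platelet and early granule genes given above were higher in the same libraries, and their part in the interferon counts was not tested.

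**Figure D4:**
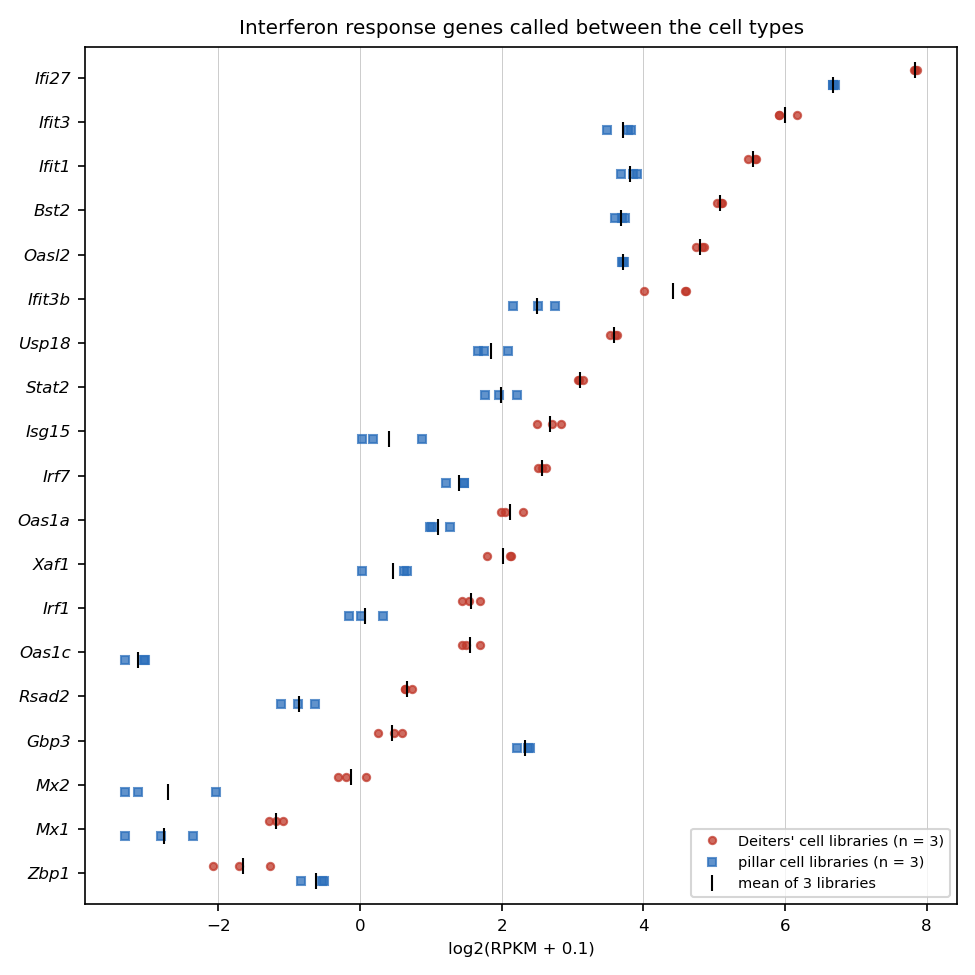
Expression as log2(RPKM + 0.1) of the interferon response genes called between the cell types, with 1 circle per Deiters' cell library, 1 square per pillar cell library and a tick at the value of the mean RPKM. Deiters' cells lie on the right for the 17 genes called higher and on the left for Gbp3 and Zbp1.

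The promoters of 4 of these genes are shown because they carry the GAAA element of interferon response. The sequences are from RefSeq (GRCm38.p6), 250 bases up to the annotated transcript start, written 5' to 3' on the strand of the gene. Capitals mark each match, on either strand, to GAAA followed by any 2 bases and a second GAAA, and matches that overlap run together.
Oas1c (chr5:120812515-120812764, minus strand): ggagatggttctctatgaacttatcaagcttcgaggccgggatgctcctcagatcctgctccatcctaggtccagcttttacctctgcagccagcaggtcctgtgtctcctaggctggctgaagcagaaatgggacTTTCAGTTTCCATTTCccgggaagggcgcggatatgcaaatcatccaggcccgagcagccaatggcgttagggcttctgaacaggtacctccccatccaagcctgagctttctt
Ifit1 (chr19:34640639-34640888, plus strand): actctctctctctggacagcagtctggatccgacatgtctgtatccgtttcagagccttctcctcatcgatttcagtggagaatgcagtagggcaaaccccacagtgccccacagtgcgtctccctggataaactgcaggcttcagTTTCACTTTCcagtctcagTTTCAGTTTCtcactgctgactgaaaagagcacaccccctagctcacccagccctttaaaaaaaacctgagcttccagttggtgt
Ifit3 (chr19:34583279-34583528, plus strand): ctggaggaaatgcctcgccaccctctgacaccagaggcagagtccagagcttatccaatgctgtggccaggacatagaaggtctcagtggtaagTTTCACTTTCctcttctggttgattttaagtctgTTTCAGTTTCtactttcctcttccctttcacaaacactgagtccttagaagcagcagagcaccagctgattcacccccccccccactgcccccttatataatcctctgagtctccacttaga
Isg15 (chr4:156200819-156201068, minus strand): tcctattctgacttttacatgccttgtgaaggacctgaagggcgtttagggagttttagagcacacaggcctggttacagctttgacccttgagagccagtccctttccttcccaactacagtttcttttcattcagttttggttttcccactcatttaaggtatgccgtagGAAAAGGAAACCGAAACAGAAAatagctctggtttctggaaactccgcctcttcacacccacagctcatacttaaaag
Oas1c, Ifit1 and Ifit3 hold 2 matches each and Isg15 holds 3. In windows that reach 50 bases past the start, the element was found in 13 of 21 interferon response genes with a RefSeq window (61.9%), in 9 of the 13 called higher in Deiters' cells (69.2%) and in 1079 of 27025 genes overall (3.99%). Among all genes called higher in Deiters' cells it was found in 72 of 1620 (4.44%), and among those called lower in 45 of 1640 (2.74%). A match describes the letters of the window and does not show that a factor binds there.

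The 60 specific genes of Deiters' cells were mostly of low expression. The rule used the contrast between the cell types, so their values are a description. The median of their Deiters' cell means was 1.65 RPKM, 41 of the 60 lay between 1 and 2 RPKM and 2 above 10 RPKM. By GENCODE class 50 are protein coding, 8 are long noncoding and 2 are pseudogenes, and 14 are predicted or unnamed genes or pseudogenes. In pillar cells 30 of the 60 were listed at 0 in each library, and with 1 read worth about 0.05 RPKM in a transcript of 1 kb, a value of 0 does not show that a gene is off. The 3 Deiters' cell libraries varied by a median of 10.7% (coefficient of variation) over the 60 genes, against 9.11% over the 2813 genes between 1 and 3 RPKM. Only Ebi3 and 6720483E21Rik had lanes more than 2-fold apart in a Deiters' cell library.

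The most abundant of them were eosinophil granule genes. Prg2, the gene of the major basic protein of eosinophils, lies on chromosome 2 from 84980461 to 84983632 and had 66.4, 68.1 and 68.6 RPKM in Deiters' cells and 0, 0.125 and 0 RPKM in pillar cells. Ear1 and Ear6, ribonuclease genes of eosinophils that belong to a family of close copies, had 10.7, 11.3 and 9.78 RPKM and 2.56, 2.36 and 2.95 RPKM in Deiters' cells and were at 0 in each pillar cell library. Prg3, a relative of Prg2, had 2.35, 2.46 and 2.49 RPKM in Deiters' cells and 0 in each pillar cell library. These 4 genes stand on the eosinophil list, so they count as blood cell markers as well as specific genes. Batf, a transcription factor gene best known from T cells and B cells, had 6.36, 5.60 and 6.35 RPKM in Deiters' cells and was at 0 in pillar cells. Of the 12 genes on the T and NK cell list, 7, Cd3e, Cd4 and Cd8a among them, were at 0 in each Deiters' cell library, and the 2 that could be tested, Nkg7 and Lck, were called higher in Deiters' cells, although Lck was not called with a pseudocount of 1 RPKM, after median-ratio rescaling, with either lane alone, or without Deiters' cell library 2 or pillar cell library 1.

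Kcnk5 was the most abundant specific gene with an ion channel product. It encodes TASK-2, a two-pore-domain potassium channel opened by alkaline pH, lies on chromosome 14 from 20140057 to 20181809, and had 4.58, 4.38 and 4.80 RPKM in Deiters' cells and 0 in each pillar cell library. Mcm2, a subunit gene of the helicase that unwinds DNA for replication, had 3.15, 2.75 and 3.48 RPKM in Deiters' cells and 0.0496, 0.118 and 0.0656 RPKM in pillar cells. Upk2, the gene of a plaque protein of bladder epithelium, had 2.49, 2.62 and 2.95 RPKM in Deiters' cells and was at 0 in pillar cells. Ces1e and Ces1h, neighbouring carboxylesterase genes that can share reads, had 2.71, 2.47 and 2.30 RPKM and 2.06, 3.14 and 2.39 RPKM in Deiters' cells, with 0.0227, 0 and 0 RPKM and 0 throughout in pillar cells. Wscd1, which encodes a sulfotransferase, had 2.41, 2.38 and 2.5 RPKM in Deiters' cells and 0 in pillar cells, and Rab33a, a small GTPase gene, had 2.48, 1.97 and 1.90 RPKM in Deiters' cells and 0 in pillar cells. Sensors of microbes and viruses were in the set. Oas1c, of the oligoadenylate synthetase family, had 2.62, 2.72 and 3.12 RPKM in Deiters' cells and 0.0205, 0 and 0.0219 RPKM in pillar cells, its relative Oasl1 had 1.99, 1.95 and 2.14 RPKM in Deiters' cells and 0 in pillar cells, and Nod1, a receptor gene for bacterial wall fragments, had 2.17, 1.77 and 2.31 RPKM in Deiters' cells and 0.0586, 0.0411 and 0.0925 RPKM in pillar cells. At the edges of the rule, Ptgs1 was the lowest inside, with 1.01 RPKM in its lowest Deiters' cell library, and Trpv2 stood just outside with 0.981 RPKM. Gm10644 was inside with a pillar cell mean of 0.0978 RPKM and Gm15201 outside with 0.111 RPKM.

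**Figure D5:**
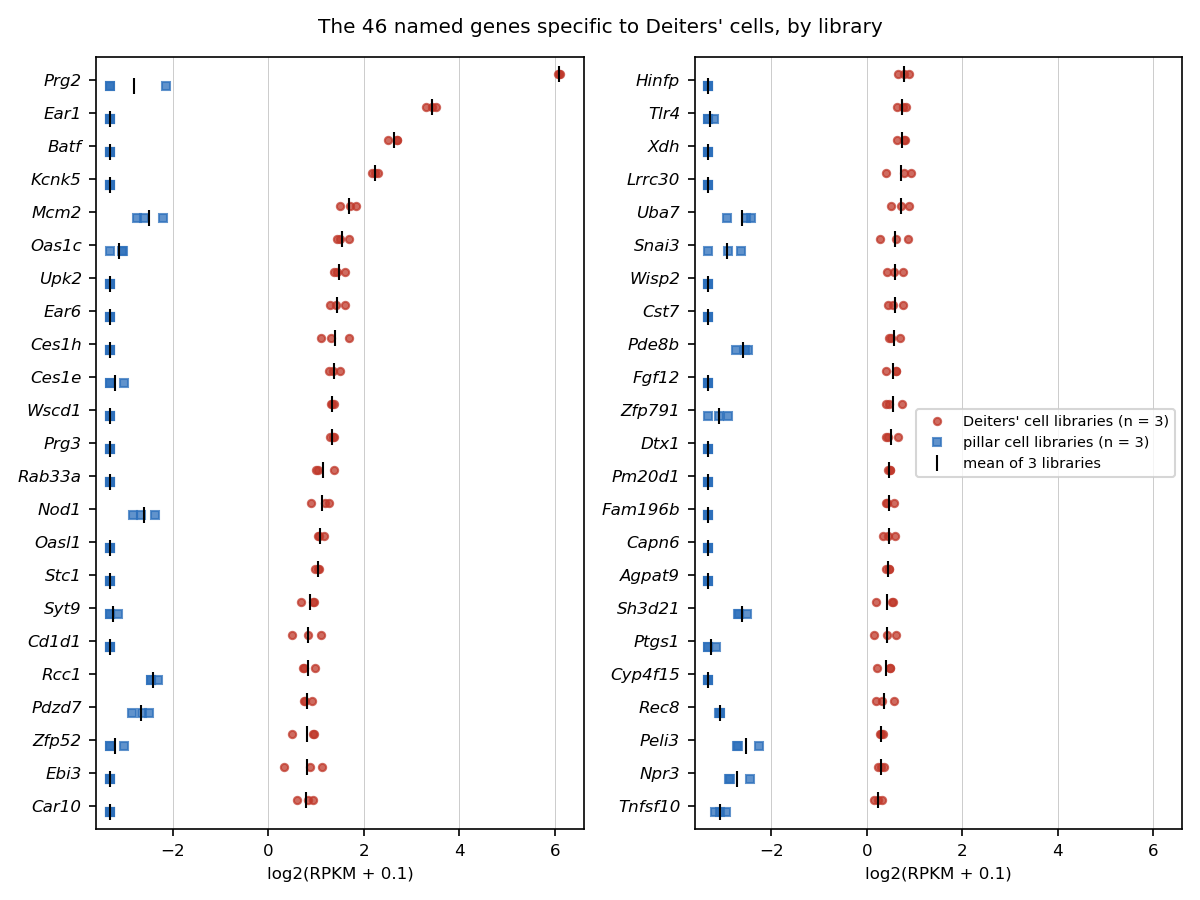
Expression as log2(RPKM + 0.1) of the 46 specific genes of Deiters' cells that are neither predicted genes nor pseudogenes, in order of their Deiters' cell mean, with 1 circle per Deiters' cell library, 1 square per pillar cell library and a tick at the value of the mean RPKM. The squares at the far left are values of 0, and Prg2 and Ear1 lie apart from the rest, at means of 67.7 and 10.6 RPKM in Deiters' cells.

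Deiters' cell libraries were close to each other. For genes whose lanes lay within 2-fold, the median coefficient of variation over the 3 Deiters' cell libraries was 6.37% between 1 and 10 RPKM, 3.53% between 10 and 100 RPKM, 2.62% between 100 and 1000 RPKM and 2.45% above 1000 RPKM, against 6.48%, 3.24%, 2.20% and 3.14% in pillar cells. Among genes above 10 RPKM whose Deiters' cell lanes lay within 2-fold, the widest spread was in short or noncoding transcripts. Snhg9, the host gene of a small nucleolar RNA, had 6.84, 19.0 and 12.9 RPKM in Deiters' cells, the small nucleolar RNA Snord13 had 13.8, 14.0 and 5.16 RPKM, and the mitochondrial transfer RNA mt-Tq had 112, 187 and 98.2 RPKM. In pillar cells the same transcripts had 7.84, 8.30 and 10.3 RPKM, 9.54, 12.1 and 12.6 RPKM, and 351, 523 and 406 RPKM. The lanes of Snhg9 and Snord13 differed over 2-fold in pillar cell libraries, and neither gene passed the test between the cell types. The libraries of 1 cell type come from pools of mice, so these spreads are between libraries of pooled cells and not between animals. How much of the spread is technical was not tested.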

How the data were processed

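RNA of Deiters' and pillar cells was measured in 3 libraries per cell type with 2 lanes each. The authors aligned the reads against mm10 (GRCm38) in CLC Genomics Workbench and deposited RPKM values per lane; HTSeq is named for read counting, and the annotation release is not given in the sources used here. Lanes were averaged per library. Of 48440 features, 48058 matched GENCODE by identifier, which gave coordinates, class and exon length, and with them an estimate of depth from the RPKM steps. Features whose mean exceeded 0.1 RPKM in Deiters' or in pillar cells entered limma 3.58.1 (R 4.3.3; lmFit, eBayes with trend) on log2(RPKM + 0.1), with Benjamini-Hochberg adjustment and no covariate. On data simulated with the same spread for every gene, 100 of 100 genes changed 2.5-fold and 100 of 100 changed 4-fold were recovered. There were 0 false calls among 16357 genes simulated. All changed genes had a mean above 1 RPKM. The recovery therefore does not cover genes below that, such as the 1180 called higher with a Deiters' cell mean of 0.1 to 1 RPKM. Summaries used Python 3.11.15, pandas 2.3.3 and scipy 1.17.1. The p-values measure the spread between libraries of pooled cells. Differences between pools of mice and technical spread were not separated.

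The members and lists were chosen with earlier results of these data known. Genes to name were picked by rule. The rule took the 6 given markers, the 20 most abundant genes, and the 15 most abundant named specific genes with those on a list. It also took up to 4 abundant and 3 called genes in each direction of each functional list, and the largest folds above 100 RPKM. From each list of another cell type it took the 2 most abundant genes. Last came up to 6 of the most variable genes. Not all of the genes picked appear in the text. Some of the 20 most abundant genes and the genes of several other cell types are left out. Other genes named singly were chosen after their values were seen. Alternatives were other pseudocounts, filters, scalings, single lanes, a replicate block and leaving out each library.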

Additional observations from a re-analysis of the deposited data

How the results depend on the processing

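Of 186 tested genes among those picked by the naming rule, 131 were called. Of these, 103 stayed past the threshold under each of the 16 alternatives in which they were tested. The counts of called genes depended most on low expression. With a pseudocount of 1 RPKM 778 genes were higher and 1001 lower in Deiters' cells, and among genes with a mean above 1 RPKM 1224 were higher and 1572 lower. Specific genes numbered 209 above 0.5 RPKM and 15 above 2 RPKM in every Deiters' cell library. The 150 most abundant genes took 42.3% of the RPKM without genes of the mitochondrial genome. Leaving out each library in turn gave 2221 to 2380 genes higher, 2401 to 2482 lower, 61 to 71 specific, 15948 to 15992 expressed and a share of 43.7% to 44.1%. Without genes whose lanes differed over 2-fold, an alternative chosen after seeing the data, 2344 were higher and 2459 lower.

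The correlations of the deviations of same-numbered libraries were -0.286, 0.380 and 0.318, and -0.008, 0.019 and 0.056 without genes whose lanes differed over 2-fold. Libraries of unlike number reached 0.347 and 0.325, which fell to 0.046 and 0.010 without those genes. The larger correlations thus rest on genes whose lanes differ and cannot decide whether the numbers pair the samples. No pairing was used in the main test. With the replicate block 2253 genes were higher and 2450 lower.

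Quantile normalization, which ties equal ranks, left no difference for S100a1 (-0.00, called otherwise) and Fbxo2 (-0.00) and turned the direction of Ubb (0.11), Itm2b (0.50), Ceacam16 (0.03) and Panx1 (0.20), and median-ratio rescaling that of Ftl1 (-0.02). Panx1 turned with lane 2 alone (0.02), Gjc3 with lane 2 alone (-0.22) and Hba-a1 with lane 1 alone (0.36). With libraries left out in turn, Panx1 ran from -0.18 to 0.08, Gjc3 from -0.01 to 0.39, Hba-a1 from -0.45 to 0.03 and Snord13 from -0.42 to 0.29. Of all these S100a1 alone was called, and the cause was not tested. Values below about 0.1 RPKM rest on very few reads, which limits the calls of specific genes.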
